A study of Mus musculus with 36 samples.

Results

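The Toll-like receptors of the mouse were followed in RNA from hippocampal slices, as the rows of the deposited count table whose Ensembl identifiers carry the symbols Tlr1 to Tlr9 and Tlr13. These are 10 genes of the 55421 in the table, and 8 of them passed the filter on low counts that left 19478 genes for testing. Tlr5 and Tlr8 did not pass it. The mice were wild type (WT, C57BL/6) or T41B (line 41 of the Thy1-hAPP mice). T41B mice carry a human APP transgene with 2 familial Alzheimer mutations, London and Swedish, and serve as an amyloid model. The transgene is driven by the Thy1 promoter, which is active mainly in neurons. Mice of both genotypes received vehicle (VEH) or BD10-2, described in the series title as a partial agonist of TrkB and TrkC, by gavage for 3 months, from 13 to 16 months of age. Slices of the right hippocampus were then either stimulated (STIM) with theta bursts or given a sham procedure (noSTIM), and were frozen directly afterwards. Bursts held 4 stimuli (100 Hz), a train held 10 bursts spaced by 200 ms, and 3 trains were given. All groups therefore share slicing, recording time and freezing, and no group consists of tissue that was never sliced. The 8 groups were WT VEH sham (4 mice), WT VEH stimulated (4), WT BD10-2 sham (3), WT BD10-2 stimulated (3), T41B VEH sham (4), T41B VEH stimulated (4), T41B BD10-2 sham (5) and T41B BD10-2 stimulated (5).

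Toll-like receptors are membrane receptors of innate immunity that recognise microbial products and some products of damaged cells. TLR1, TLR2, TLR4, TLR5 and TLR6 act mainly at the cell surface, whereas TLR3, TLR7, TLR8, TLR9 and TLR13 sense nucleic acids in endosomes. All except TLR3 signal through the adaptor MyD88, TLR3 and TLR4 use TRIF, and both routes lead to NF-kappaB and interferon regulatory factors, which switch on cytokine and interferon genes. In the brain these receptors are best known from microglia, the resident macrophages, and TLR3 is known from astrocytes as well. TLR2, TLR4 and their co-receptor CD14 have been studied as microglial sensors of amyloid.

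The sequences before the transcription starts are shown for the 5 members whose transcripts were called in a stimulation comparison, since their responses differed in direction. They were taken from RefSeq promoter windows on GRCm38.p6, where 8 of the 10 members matched (not Tlr4 and Tlr7), and each line gives the 250 bases before the start, 5′ to 3′ on the gene's strand. Capitals mark matches, on either strand, to the kappaB consensus in Tlr2 and Tlr3 and to GAGGAA, the core recognised by the myeloid factor PU.1, in Tlr1, Tlr9 and Tlr13.
Tlr1, chr5:64933559-64933808, minus strand: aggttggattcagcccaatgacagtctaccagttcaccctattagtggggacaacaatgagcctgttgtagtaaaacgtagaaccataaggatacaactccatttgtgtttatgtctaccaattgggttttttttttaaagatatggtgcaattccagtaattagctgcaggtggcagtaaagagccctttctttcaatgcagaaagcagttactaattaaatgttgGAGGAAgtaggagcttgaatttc
Tlr2, chr3:83841609-83841858, minus strand: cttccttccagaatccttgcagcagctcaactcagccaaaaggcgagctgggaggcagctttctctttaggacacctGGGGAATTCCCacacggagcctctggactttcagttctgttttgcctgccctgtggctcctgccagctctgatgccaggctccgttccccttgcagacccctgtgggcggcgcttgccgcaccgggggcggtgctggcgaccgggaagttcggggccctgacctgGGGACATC
Tlr3, chr8:45410381-45410630, minus strand: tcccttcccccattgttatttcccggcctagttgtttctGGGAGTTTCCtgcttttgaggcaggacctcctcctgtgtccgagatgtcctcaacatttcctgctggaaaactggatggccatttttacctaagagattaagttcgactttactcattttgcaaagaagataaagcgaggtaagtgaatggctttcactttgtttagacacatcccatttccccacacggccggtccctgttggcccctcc
Tlr9, chr9:106222348-106222597, plus strand: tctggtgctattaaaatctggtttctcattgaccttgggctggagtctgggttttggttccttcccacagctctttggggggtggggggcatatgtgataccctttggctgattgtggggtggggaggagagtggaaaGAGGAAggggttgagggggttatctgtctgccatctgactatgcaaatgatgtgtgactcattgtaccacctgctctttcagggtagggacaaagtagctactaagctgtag
Tlr13, chrX:106143025-106143274, plus strand: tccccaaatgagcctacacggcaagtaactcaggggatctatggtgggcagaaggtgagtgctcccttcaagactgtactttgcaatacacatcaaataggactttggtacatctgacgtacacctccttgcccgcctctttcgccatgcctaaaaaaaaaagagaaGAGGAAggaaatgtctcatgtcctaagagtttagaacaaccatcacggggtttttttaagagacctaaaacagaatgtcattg
The search covered 250 bases before to 50 bases after the start. The kappaB consensus occurred in Tlr2 at 173 and 172 bases before the start, in overlapping matches, and at 8 bases before it, where the match runs across the start. In Tlr3 it began 211 bases before the start, and it was in no window of the other members. Of all 32851 promoter windows, 4.51% held the kappaB consensus. Tlr1 has a second start with a window of its own, which held neither motif. GAGGAA began 23 bases before the start in the printed window of Tlr1, 112 bases before and 12 bases after the start in Tlr9, and 83 bases before it in Tlr13. A match to GAGGAA was also found 77 bases before the start of Tlr8, and 28.3% of all windows held this motif. The AP-1 pattern TGANTCA began 58 bases before the start in Tlr9 (7.81% of all windows), and the interferon regulatory factor pattern began at 116 and 110 bases before the start in 1 window of Tlr6 (3.44%). No window held both the kappaB consensus and GAGGAA. These matches describe the letters only and are not evidence of binding.

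Library totals ran from 11597555 to 28125842 expected counts in 36 libraries, with a median of 18082415. Mouse Thy1, which checks the genotype label because the cassette holds Thy1 sequence, was at 255 to 400 counts per 1000000 (CPM) in wild-type libraries and at 880 to 2412 in T41B libraries. For 4 slices a pair of libraries carried the same labels and was added, which gave 32 samples. Of genes averaging at least 10 CPM, 1.56% differed over 2-fold in the pair from the stimulated slice of Mouse1592 (T41B BD10-2). In the pair from the sham slice of Mouse1565 (WT BD10-2) it was 1.32%, with Tlr2 at 4.55 and 6.78 CPM. The pairs of Mouse1557 and Mouse1586 were at 0.33% and 0.18%. Whether these pairs are repeats of 1 RNA sample is not given, and an error in labelling or a mixture in 1 of the libraries of Mouse1592 was not tested. Its first library had Tlr2 at 53.1 CPM, Thy1 at 880 and the cytokine Il1b at 110, and its second had Tlr2 at 145, Thy1 at 1909 and Il1b at 343. The results below that rest on this group are therefore also given without this mouse or with 1 of these libraries where that changed a call. Marker genes of neurons, astrocytes, oligodendrocytes and microglia were present in all groups. The labels give no sex, and whether slices of a group were cut on separate days is also not given, so p-values measure the spread between these mice.

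In wild-type vehicle sham slices Tlr3 was the most abundant member per length, and in every T41B group it was Tlr2. Levels between genes are compared here as TMM-scaled CPM per kilobase of exon. In WT VEH sham slices Tlr3 was at 2.49 ± 0.12 CPM per kb (SD, n = 4), above the range of Tlr2 at 1.38 ± 0.33. Tlr2, Tlr9 (1.09 ± 0.069), Tlr7 (0.979 ± 0.39) and Tlr13 (0.628 ± 0.12) followed with ranges that overlapped from each to the next. Tlr4 (0.171 ± 0.048), Tlr6 (0.0984 ± 0.083), Tlr1 (0.0911 ± 0.042), Tlr5 (0.0638 ± 0.028) and Tlr8 (0.0232 ± 0.027) formed a lower tier in which neighbours did not differ beyond their spread. In T41B BD10-2 stimulated slices, at the other end of the design, Tlr2 stood at 35.5 ± 9.42 CPM per kb (SD, n = 5), followed by Tlr3 at 9.22 ± 3.65 and Tlr7 at 3.61 ± 1.495. Tlr3 and Tlr7 overlapped there, as did Tlr7 and Tlr9 (2.19 ± 0.56). Tlr1 (0.894 ± 0.26) and Tlr13 (0.803 ± 0.37) overlapped each other, and Tlr5 (0.0413 ± 0.018) and Tlr8 (0.0206 ± 0.0053) were again lowest. By group mean, Tlr2 and Tlr3 held the first and the second place, in either order, in all 8 groups, sham slices included. In every sham group and in T41B BD10-2 stimulated slices the range of the second overlapped that of the third.

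**Figure D1:**
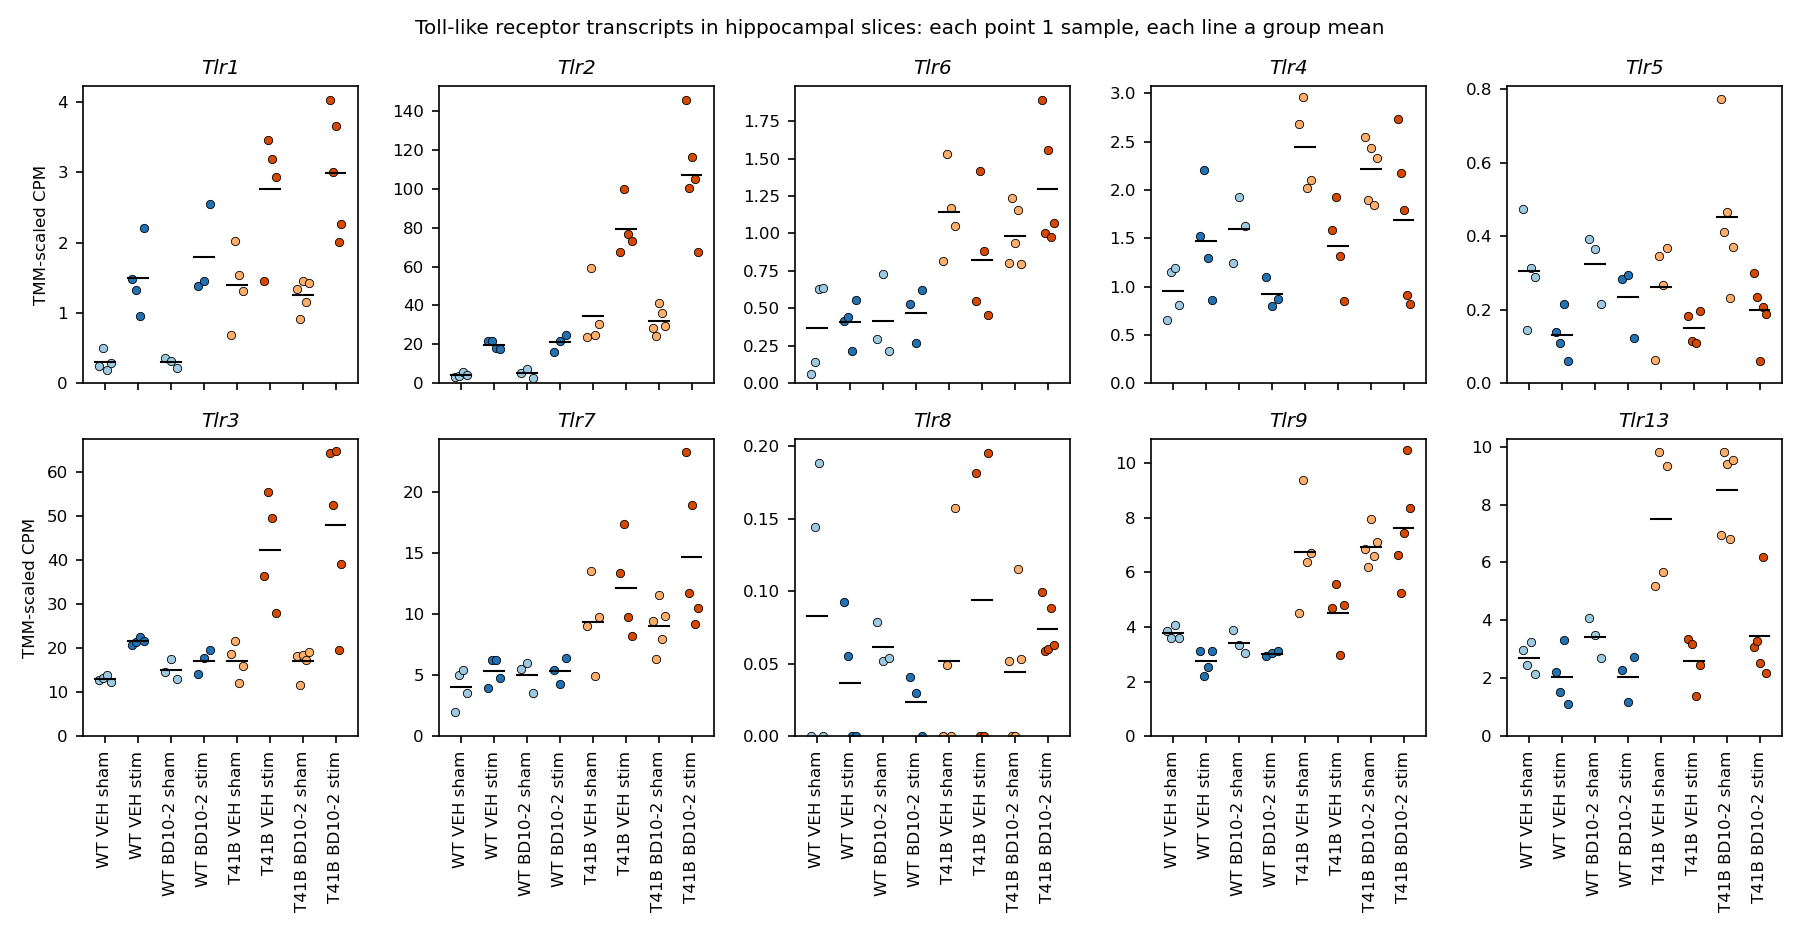
TMM-scaled CPM (vertical axes, linear, each panel with its own scale) of the 10 members in the 8 groups (horizontal axis); each point is 1 sample and each line a group mean. Tlr2 lies at 3.20 to 5.47 CPM in WT VEH sham slices and at 67.4 to 146 CPM in T41B BD10-2 stimulated slices, while Tlr13 is highest in the T41B sham groups.

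Stimulated slices were compared with sham slices within each genotype and treatment, the comparison that asks how transcripts differ after theta-burst stimulation. Of the 8 members tested, 2 were called in WT VEH mice (12.3% of all genes tested were called) and 2 in WT BD10-2 mice (8.87%). In T41B VEH mice 5 were called (21.5% of all genes), 3 higher (11.7%) and 2 lower (9.83%). In T41B BD10-2 mice 4 were called (22.9% of all genes), 3 higher (13.3%) and 1 lower (9.52%). A call is a Benjamini-Hochberg adjusted p under 0.05 in edgeR's quasi-likelihood test over all 19478 genes. Tlr1 and Tlr2 rose in all 4 comparisons, Tlr3 rose in both T41B comparisons, Tlr13 fell in both T41B comparisons, and Tlr9 fell in T41B VEH mice. The members' median log2 fold changes were 0.53, −0.05, 0.13 and 0.56 in WT VEH, T41B VEH, WT BD10-2 and T41B BD10-2 mice, beside −0.0097, −0.05, −0.0072 and −0.04 over all genes.

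**Figure D2:**
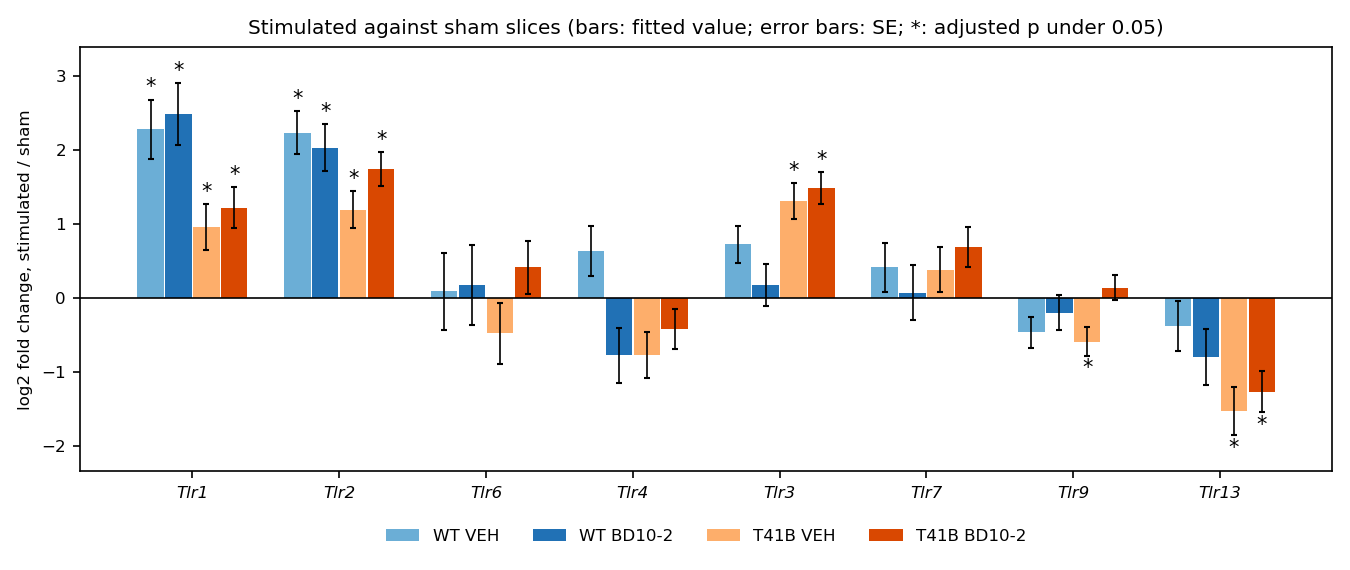
Log2 fold change of stimulated over sham slices (vertical axis) for the 8 members tested, in 4 colours for the genotype and treatment groups; bars start at 0, error bars are SE and stars mark adjusted p under 0.05. Tlr1 and Tlr2 have stars in all 4 groups, and Tlr3 and Tlr13 have stars of opposite direction in the T41B groups.

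Tlr2 (ENSMUSG00000027995, chr3:83836272-83841767), the shared partner of the lipopeptide receptors, was the member with the most counts. In WT VEH mice it was at 3.20, 3.67, 5.47 and 4.33 CPM in sham slices and at 21.6, 21.7, 17.8 and 17.6 CPM in stimulated slices of Mouse1509, Mouse1513, Mouse1522 and Mouse1524. The groups did not overlap, and every stimulated slice was well above every sham slice. The difference was 2.24 ± 0.29 on the log2 scale (SE), 4.72-fold, with an edgeR adjusted p of 2.39e-06. In WT BD10-2 mice the sham values were 5.39, 7.05 and 2.71 CPM and the stimulated values 16.3, 21.5 and 24.9, again without overlap (2.03 ± 0.32, edgeR adjusted p = 5.06e-05). With BD10-2, here and below, sham and stimulated values are not listed in the same order of mice, and some mice had only 1 of these slices. In T41B VEH mice sham slices were at 23.7, 59.2, 24.8 and 30.5 CPM and stimulated slices at 67.6, 99.7, 77.0 and 73.1 CPM for Mouse1510, Mouse1551, Mouse1553 and Mouse1579. Mouse1551 was the highest in both sets, and the lowest stimulated slice still exceeded it in sham (1.20 ± 0.25, edgeR adjusted p = 0.000781). In T41B BD10-2 mice sham slices were at 28.2, 24.2, 41.5, 36.1 and 29.6 CPM and stimulated slices at 146, 100, 117, 105 and 67.4 CPM, with no overlap (1.74 ± 0.23, edgeR adjusted p = 6.33e-07). With only the first or only the second library of Mouse1592 this value was 1.61 or 1.85.

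Tlr1 (ENSMUSG00000044827, chr5:64924679-64933563), which pairs with TLR2 to recognise triacylated lipopeptides, rose with it from a far lower level. In WT VEH mice it was at 0.237, 0.504, 0.189 and 0.289 CPM in sham slices, from 3 to 7 counts a sample, and at 1.48, 1.32, 0.951 and 2.21 CPM in stimulated slices. The groups were separate (2.28 ± 0.40, edgeR adjusted p = 0.000169). In WT BD10-2 mice the sham values were 0.354, 0.313 and 0.217 CPM and the stimulated values 1.38, 1.45 and 2.54 CPM, also separate (2.49 ± 0.42, edgeR adjusted p = 0.000122). In T41B VEH mice the sham values of 0.688, 2.02, 1.54 and 1.31 CPM overlapped the stimulated values of 1.45, 3.46, 3.19 and 2.93 CPM (0.96 ± 0.31, edgeR adjusted p = 0.0254). This call was lost without Mouse1553 (adjusted p = 0.0906), without Mouse1579 (0.0912), and when only the 2 groups compared were fitted (0.0982). In T41B BD10-2 mice sham slices were at 1.34, 0.907, 1.45, 1.16 and 1.43 CPM and stimulated slices at 4.03, 3.00, 3.66, 2.01 and 2.26 CPM (1.22 ± 0.28, edgeR adjusted p = 0.00151).

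Tlr6 (ENSMUSG00000051498, chr5:64952031-64960097), the partner of TLR2 for diacylated lipopeptides and the neighbour of Tlr1 on chromosome 5, was not called in any stimulation comparison. Its log2 fold changes were 0.10 ± 0.52, −0.47 ± 0.42, 0.18 ± 0.54 and 0.42 ± 0.36 (SE) in WT VEH, T41B VEH, WT BD10-2 and T41B BD10-2 mice. The transcripts of Tlr1 and Tlr6 share 454 stretches of 50 bases, 13.6% of those of Tlr1 and 12.3% of those of Tlr6. Reads from these stretches had to be divided between the genes by the authors' counting, so the counts of both are uncertain to that extent. No other pair of members shares such a stretch.

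Tlr3 (ENSMUSG00000031639, chr8:45395665-45411080), the endosomal receptor for double-stranded RNA, rose in T41B mice. In T41B VEH mice it went from 18.6, 21.5, 12.1 and 16.0 CPM in sham slices to 36.4, 55.3, 49.5 and 27.98 CPM in stimulated slices of the same mice, with no overlap (1.31 ± 0.25, edgeR adjusted p = 0.000221). In T41B BD10-2 mice sham slices were at 18.2, 11.7, 18.4, 17.3 and 19.2 CPM and stimulated slices at 64.2, 52.4, 64.7, 19.7 and 39.1 CPM (1.49 ± 0.22, edgeR adjusted p = 5.31e-06). The lowest stimulated value, 19.7 CPM, came from Mouse1592 and lay just above the highest sham value. Its libraries had Tlr3 at 13.0 and 24.5 CPM, the first of them within the range of the sham slices. With only the first or only the second library the log2 fold change was 1.46 or 1.52, called in both cases.
In wild-type mice Tlr3 was not called. The WT VEH groups did not overlap, with 12.6, 13.2, 13.8 and 12.4 CPM in sham and 20.7, 21.4, 22.4 and 21.6 CPM in stimulated slices (0.73 ± 0.25, edgeR adjusted p = 0.054), and DESeq2 called this difference (0.73 ± 0.25, adjusted p = 0.0346). So did edgeR with only the groups compared (adjusted p = 0.000323), with batch as covariate (0.0316) and without the filter (0.0407). It also did so with the second library of each pair (0.0346) or of Mouse1592 alone (0.0318), and not in the other alternatives. In WT BD10-2 mice 14.6, 17.4 and 13.0 CPM in sham overlapped 13.99, 17.8 and 19.5 CPM in stimulated slices (0.18 ± 0.28, edgeR adjusted p = 0.761). Tlr3 is the only member that overlaps another annotated gene, Gm45542 on the opposite strand, and the strand setting of the counting is not given in the sources used here.

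No other nucleic acid receptor was called higher with stimulation. Tlr13 (ENSMUSG00000033777, chrX:106143204-106160493), a receptor for bacterial ribosomal RNA that humans lack, fell in T41B mice. In T41B VEH mice it went from 5.19, 9.82, 5.69 and 9.34 CPM in sham slices to 3.36, 3.18, 1.38 and 2.47 CPM in stimulated slices, without overlap (−1.53 ± 0.32, edgeR adjusted p = 0.000879). In T41B BD10-2 mice sham slices were at 6.96, 9.82, 9.38, 6.82 and 9.53 CPM and stimulated slices at 3.09, 3.30, 2.52, 6.18 and 2.20 CPM (−1.26 ± 0.28, edgeR adjusted p = 0.00118). The value of 6.18 CPM is from Mouse1592, whose sham slice was at 9.53 CPM. The change was −1.43 with only the first library of that mouse and −1.18 with only the second. In wild-type mice the values were −0.37 ± 0.34 and −0.79 ± 0.38 with vehicle and BD10-2 and neither was called.

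Tlr9 (ENSMUSG00000045322, chr9:106222598-106226883), the receptor for unmethylated CpG DNA, fell in T41B VEH mice, where sham slices were at 4.50, 9.38, 6.38 and 6.72 CPM and stimulated slices at 4.68, 5.56, 2.97 and 4.82 CPM. These groups overlapped (−0.59 ± 0.20, edgeR adjusted p = 0.0314), and the call was lost without Mouse1551, Mouse1553 or Mouse1579 (adjusted p from 0.0638 to 0.155), and with only these groups fitted (0.154). In the other 3 comparisons the values were −0.46 ± 0.21 in WT VEH, −0.19 ± 0.23 in WT BD10-2 and 0.14 ± 0.17 in T41B BD10-2 mice, none called. The WT VEH groups did not overlap, with 3.58 to 4.09 CPM in sham and 2.20 to 3.13 CPM in stimulated slices (edgeR adjusted p = 0.153). Tlr7 (ENSMUSG00000044583, chrX:167304929-167330558), which detects single-stranded RNA, was not called, with its largest difference in T41B BD10-2 mice at 0.69 ± 0.27 (edgeR adjusted p = 0.0639). DESeq2 called that difference (0.72 ± 0.28, adjusted p = 0.0493), and edgeR did so without Mouse1592 (0.86, adjusted p = 0.0374), with only its second library (0.73, adjusted p = 0.0395) and without Mouse1572 (0.79, adjusted p = 0.0475). Tlr8 (ENSMUSG00000040522, chrX:167242696-167264329) had 40 counts in all 32 samples together, and 11 samples had none, which allows up to 0.13 to 0.247 CPM in them (3 counts, counting error only).

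Tlr4 (ENSMUSG00000039005, chr4:66827584-66930284), the receptor for lipopolysaccharide, was not called with stimulation. Its log2 fold changes were 0.64 ± 0.34 in WT VEH, −0.77 ± 0.31 in T41B VEH, −0.77 ± 0.37 in WT BD10-2 and −0.41 ± 0.27 in T41B BD10-2 mice. In T41B VEH mice the groups did not overlap, with 2.69, 2.96, 2.02 and 2.10 CPM in sham and 1.59, 1.93, 1.32 and 0.846 CPM in stimulated slices, and the edgeR adjusted p was 0.0765. Tlr5 (ENSMUSG00000079164, chr1:182954788-182976044), the flagellin receptor, had 188 counts in all samples together and 0.0599 to 0.773 CPM, and it was not tested. Of the family outside the members, Tlr11 had 8 counts in all. Tlr12, tested as a pathway gene, fell in 3 of 4 comparisons (−1.67 ± 0.41 in T41B VEH, −2.51 ± 0.61 in WT BD10-2 and −1.09 ± 0.35 in T41B BD10-2 mice) and was −1.34 ± 0.53 in WT VEH mice (edgeR adjusted p = 0.101).

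For 14 mice a sham and a stimulated slice were both sequenced, so the direction could be read within each animal. Tlr1 and Tlr2 were higher in the stimulated slice in 14 of 14 mice, Tlr3 in 13 and Tlr7 in 11. Tlr13 was lower in 13 of 14 mice, Tlr5 in 13 and Tlr9 in 11. Tlr4 and Tlr6 were each lower in 8 and higher in 6 of all 14. By group, Tlr4 was higher in 4 of 4 WT VEH mice, lower in 4 of 4 T41B VEH mice and in 2 of 2 WT BD10-2 mice, and higher in 2 of 4 T41B BD10-2 mice. Tlr6 was lower in 4 of 4 T41B VEH mice, and higher in 2 of 4 WT VEH, 1 of 2 WT BD10-2 and 3 of 4 T41B BD10-2 mice. The within-mouse differences on log2(CPM + 1) had medians of 1.68 for Tlr2 (0.74 to 2.43), 0.79 for Tlr1 (0.31 to 1.43), 0.76 for Tlr3 (−0.05 to 2.07) and −0.61 for Tlr13 (−1.57 to 0.02). A fit with the mouse as replicate block, which draws only on the 14 paired mice, called 2, 6, 2 and 5 members in WT VEH, T41B VEH, WT BD10-2 and T41B BD10-2 mice, where it called 20.1%, 29.5%, 6.6% and 23.9% of all genes. It added Tlr4 in T41B VEH mice (−0.79, edgeR adjusted p = 0.0394) and Tlr7 in T41B BD10-2 mice (0.76, edgeR adjusted p = 0.0118).

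**Figure D3:**
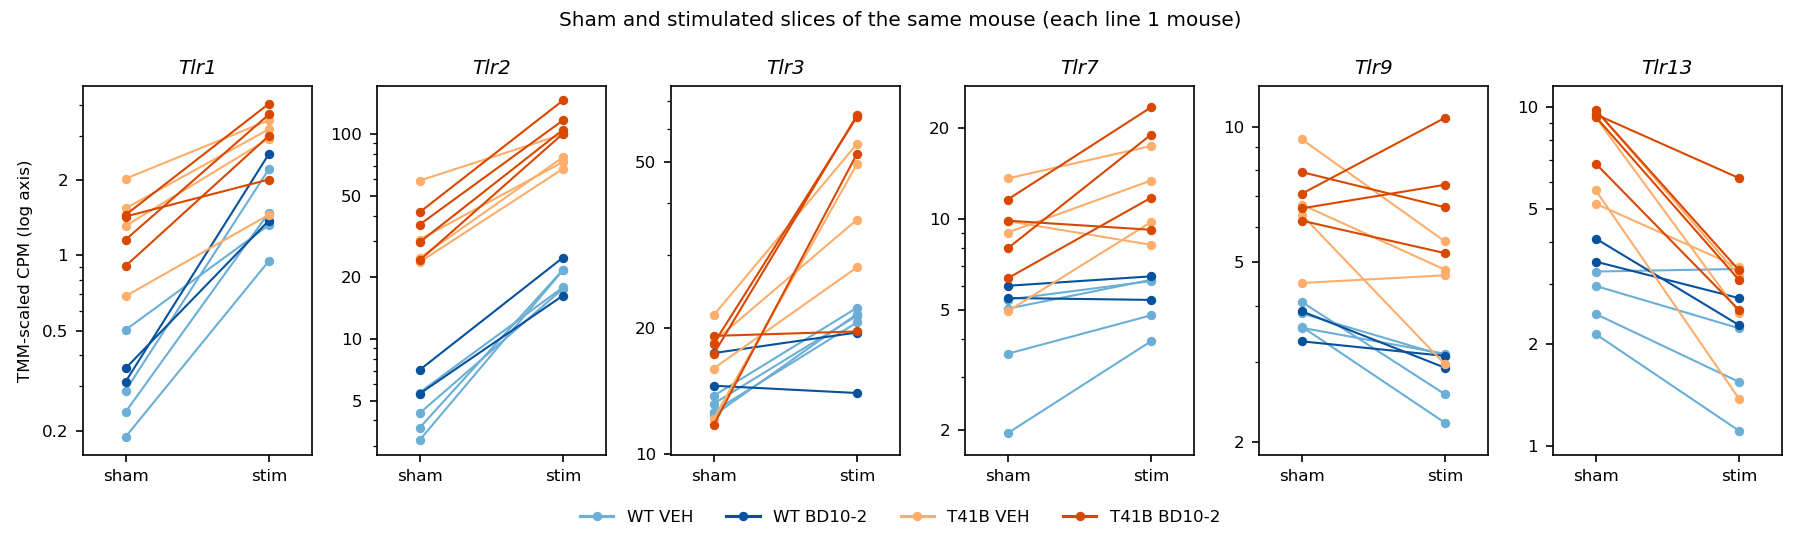
TMM-scaled CPM (vertical axes, log scale) of 6 members in the sham and the stimulated slice of each of 14 mice; each line is 1 mouse, coloured by genotype and treatment. Every line goes up for Tlr1 and Tlr2, 13 lines go up for Tlr3 and 13 go down for Tlr13.

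The members moved in different directions while the marker genes of microglia fell. Of 10 microglial markers, 8, 8, 8 and 7 were called lower in WT VEH, T41B VEH, WT BD10-2 and T41B BD10-2 mice and none higher. Their summed level was 286 to 372 CPM in WT VEH sham and 132 to 208 CPM in WT VEH stimulated slices, and 605 to 1121 against 336 to 487 CPM in T41B VEH mice. With BD10-2 it was 312 to 382 against 155 to 190 CPM in wild-type mice and 745 to 1054 against 458 to 702 CPM in T41B mice. Tlr13, Tlr9 and Tlr12 went the same way as these markers where they were called, and Tlr1, Tlr2 and Tlr3 the opposite way. In such bulk samples fewer cells of a type and less RNA per cell cannot be told apart. None of 5 markers of plaque-associated microglia (Cst7, Itgax, Clec7a, Trem2, Tyrobp) was called with stimulation. Of 5 astrocyte markers 3 were called higher in every stimulation comparison except WT BD10-2, where none was. Neutrophil markers summed to at most 0.397 CPM in any sample, and Ly6g, Retnlg and Camp were at 0 in most groups. Monocyte and border macrophage markers summed to 0.553 to 6.48 CPM, and 1 of 4 tested (Pf4) was called higher in T41B BD10-2 mice. Lymphocyte markers summed to at most 2.22 CPM. Of 3 endothelial markers 1 (Pecam1) was called higher in each T41B comparison and none in wild-type mice. Of 5 neuronal markers 1, 0, 1 and 2 were called lower in WT VEH, T41B VEH, WT BD10-2 and T41B BD10-2 mice, and 1 of 4 oligodendrocyte markers (Mog) was called lower in T41B VEH mice. All 5 choroid plexus markers were called higher in stimulated WT VEH slices, where their sum ran from 13.9 to 1179 CPM against 14.9 to 19.8 CPM in sham slices. The part of these cell type markers in the members' differences was not tested.

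T41B mice were compared with wild-type mice within each treatment and slice type, the comparison that asks which transcripts differ with the APP transgene. Of the 8 members tested, 7 were called in VEH sham slices (6.24% of all genes tested), 4 in VEH stimulated slices (5.79%), 4 in BD10-2 sham slices (5.45%) and 5 in BD10-2 stimulated slices (10.6%). All 20 calls were higher in T41B, the direction of 5%, 4.74%, 4.31% and 8.19% of all genes in these comparisons. The members' median log2 fold changes were 1.42, 0.93, 1.14 and 1.40, beside 0.0014, −0.026, 0.0071 and −0.02 over all genes. These comparisons use the same samples as the stimulation comparisons and are not independent of them. Tlr2 and Tlr9 were called in all 4, Tlr7 in 3, Tlr1, Tlr3, Tlr6 and Tlr13 in 2 each and Tlr4 in 1.

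**Figure D4:**
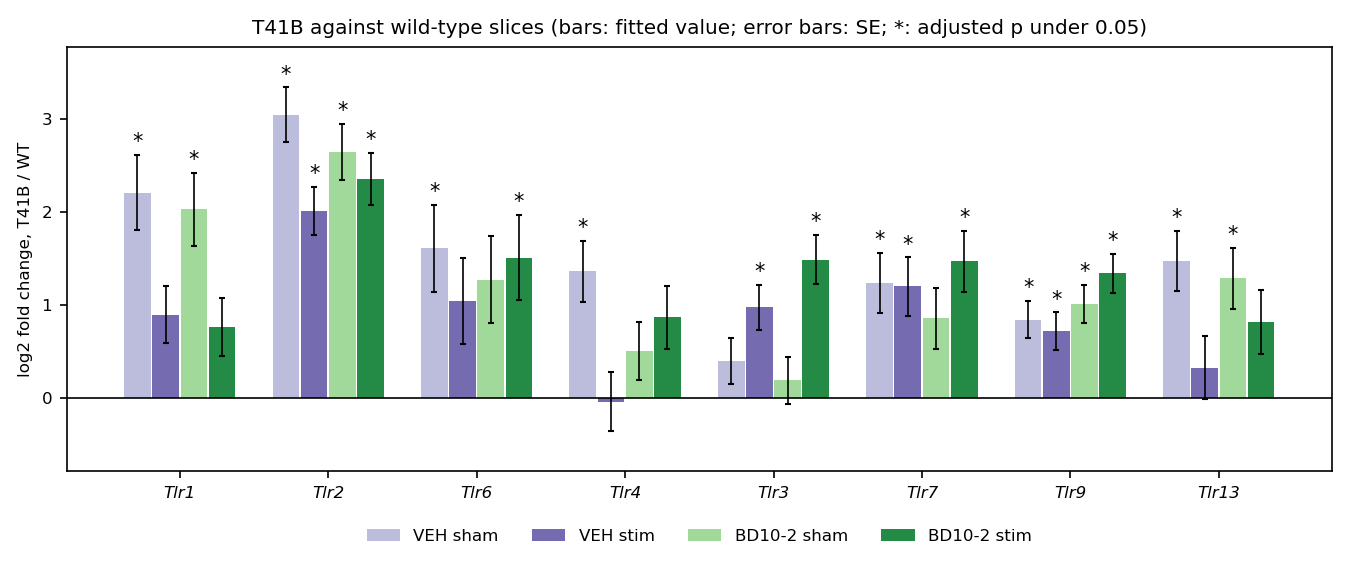
Log2 fold change of T41B over wild-type slices (vertical axis) for the 8 members tested, in 4 colours for treatment and slice type; bars start at 0, error bars are SE and stars mark adjusted p under 0.05. Tlr2 has the tallest bars, from 2.01 to 3.05, and Tlr9 has stars in all 4 settings.

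Among the lipopeptide receptors, Tlr2 differed most. The values printed above give 3.20 to 5.47 CPM in WT VEH sham slices against 23.7 to 59.2 CPM in T41B VEH sham slices, 8.29-fold (3.05 ± 0.29, edgeR adjusted p = 8.38e-08). The log2 fold change was 2.01 ± 0.26 in VEH stimulated slices, 2.65 ± 0.30 in BD10-2 sham slices and 2.36 ± 0.28 in BD10-2 stimulated slices, with no overlap of genotypes in any of them. With vehicle, the sham slices of T41B mice (23.7 to 59.2 CPM) lay above the stimulated slices of wild-type mice (17.6 to 21.7 CPM). With BD10-2 these slices overlapped (24.2 to 41.5 CPM against 16.3 to 24.9 CPM). Tlr1 was higher in T41B sham slices (2.21 ± 0.40 with vehicle, edgeR adjusted p = 0.000622, and 2.03 ± 0.39 with BD10-2, edgeR adjusted p = 0.00132). In stimulated slices its values were 0.89 ± 0.31 and 0.76 ± 0.32, with overlapping genotypes and no call. The value with vehicle passed without Mouse1510 (1.12, adjusted p = 0.0138) or Mouse1524 (1.15, adjusted p = 0.0393). Tlr6 was higher in VEH sham slices, with 0.0593, 0.144, 0.629 and 0.635 CPM in wild-type and 0.813, 1.53, 1.17 and 1.05 CPM in T41B mice (1.61 ± 0.47, edgeR adjusted p = 0.035). It was also higher in BD10-2 stimulated slices (1.51 ± 0.46, edgeR adjusted p = 0.0297). The wild-type values of Tlr6 rest on 1 to 15 counts a sample, and its calls did not hold without single mice. In VEH sham slices the adjusted p was 0.083 to 0.16 without Mouse1509, Mouse1513, Mouse1551 or Mouse1553, and in BD10-2 stimulated slices 0.0756 to 0.175 without Mouse1563, Mouse1564, Mouse1565 or Mouse1586.

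Tlr9 was higher in T41B in all 4 settings, from 0.71 ± 0.21 in VEH stimulated slices, where the genotypes overlapped, to 1.34 ± 0.21 in BD10-2 stimulated slices. In the latter, wild-type mice were at 2.92, 3.04 and 3.10 CPM and T41B mice at 6.62, 5.24, 7.43, 10.5 and 8.35 CPM, without overlap (edgeR adjusted p = 4.86e-05). The wild-type values lay within a narrow band, and Mouse1592 was the highest of the T41B mice. The Tlr9 call in VEH sham slices was lost without Mouse1551 (adjusted p = 0.0798), and that in VEH stimulated slices without Mouse1509, Mouse1513, Mouse1522, Mouse1551 or Mouse1579 (0.0519 to 0.139). Tlr7 was higher in VEH sham (1.23 ± 0.33, edgeR adjusted p = 0.0201), VEH stimulated (1.20 ± 0.31, edgeR adjusted p = 0.0177) and BD10-2 stimulated slices (1.47 ± 0.33, edgeR adjusted p = 0.00289). The genotypes overlapped in VEH sham slices, where the lowest T41B value (4.94 CPM) lay below the highest wild-type value (5.41 CPM), and not in the stimulated slices. In BD10-2 sham slices it was 0.85 ± 0.33 (edgeR adjusted p = 0.137), with 5.47, 6.00 and 3.52 CPM in wild-type and 9.46, 6.35, 11.6, 7.97 and 9.85 CPM in T41B mice, which did not overlap. Without Mouse1509 or Mouse1551 the Tlr7 calls with vehicle were lost, with adjusted p of 0.106 and 0.114 in sham and 0.0543 and 0.0908 in stimulated slices. Tlr3 and Tlr13 were called in different slices. Tlr3 was higher in T41B in stimulated slices (0.97 ± 0.24, edgeR adjusted p = 0.0117, with vehicle, and 1.49 ± 0.26, edgeR adjusted p = 0.000186, with BD10-2), and in sham slices it was 0.39 ± 0.25 and 0.18 ± 0.26. The Tlr3 call with vehicle was lost without Mouse1551 (0.82, adjusted p = 0.0706). Tlr13 was higher in T41B in sham slices (1.47 ± 0.33, edgeR adjusted p = 0.00439, and 1.29 ± 0.33, edgeR adjusted p = 0.0163), and in stimulated slices it was 0.32 ± 0.34 and 0.81 ± 0.35. The Tlr13 call with BD10-2 was lost without Mouse1571 (adjusted p = 0.0702) or Mouse1590 (0.12).

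Tlr4 was higher in T41B in VEH sham slices, with 0.652, 1.15, 1.19 and 0.808 CPM in wild-type and 2.69, 2.96, 2.02 and 2.10 CPM in T41B mice (1.36 ± 0.33, edgeR adjusted p = 0.0097). The groups were separate, and the call was lost without Mouse1509 (adjusted p = 0.0664). In VEH stimulated, BD10-2 sham and BD10-2 stimulated slices Tlr4 was −0.04 ± 0.32, 0.50 ± 0.32 and 0.86 ± 0.34, without a call. The last of these passed with only the second library of Mouse1592 (0.95 ± 0.32, edgeR adjusted p = 0.048), without that mouse (1.05, adjusted p = 0.0374) and without Mouse1572 (1.03, adjusted p = 0.0425). Tlr12 was higher in 3 settings, up to 2.78 ± 0.57 in BD10-2 stimulated slices.

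The labels give 8 batches, of which 5 held both genotypes. In 4 of these both genotypes were present in the same slice type, which gave 7 sets of 1 batch and slice type. The sets of batches A, C and D each held 1 T41B and 1 wild-type mouse. Sham and stimulated sets of a batch shared mice, so the 7 sets are not independent. How many of all genes were positive in every set was not counted. Within these sets the T41B minus wild-type difference on log2(CPM + 1) was positive in 7 of 7 for Tlr1, Tlr2, Tlr7, Tlr9 and Tlr13, and in 6 of 7 for Tlr3, Tlr4 and Tlr6. It ranged from 1.81 to 3.05 for Tlr2, from 0.29 to 0.998 for Tlr1, from 0.11 to 1.01 for Tlr9 and from 0.13 to 1.26 for Tlr7. For Tlr13 it ranged from 0.012 to 1.72, with only 0.012 and 0.086 in the stimulated sets of batches A and I. With the batch as a covariate, 3 members (Tlr1, Tlr2, Tlr13) were called in VEH sham slices (1.81% of all genes in that fit) and 1 member, Tlr2, in VEH stimulated slices (3.92%). With BD10-2 that fit called 4 members in sham (4.32%) and 4 in stimulated slices (9.13%). It lost the calls of Tlr4, Tlr6, Tlr7 and Tlr9 in VEH sham slices (edgeR adjusted p from 0.0587 to 0.592). Those of Tlr3, Tlr7 and Tlr9 in VEH stimulated slices (0.132 to 0.202) and of Tlr6 in BD10-2 stimulated slices (0.0627) were lost as well. Microglial and plaque markers moved with genotype as the members did. Of 10 microglial markers 9, 6, 8 and 10 were called higher in T41B in VEH sham, VEH stimulated, BD10-2 sham and BD10-2 stimulated slices, and the 5 plaque markers were called higher in all 4. The plaque markers summed to 15.1 to 22.9 CPM in WT VEH sham and to 92.6 to 186 CPM in T41B VEH sham slices. Of 5 astrocyte markers 2, 2, 2 and 5 were called higher in T41B, and their sum was 1003 to 1212 CPM in WT VEH sham and 2095 to 3085 CPM in T41B VEH sham slices. In VEH stimulated slices it was 1452 to 1785 against 2820 to 3493 CPM. Of 5 neuronal markers 1, 2, 1 and 0 were called lower, and 1 of 4 tested monocyte and border macrophage markers was called higher in BD10-2 stimulated slices. Of 5 choroid plexus markers 1 (Ttr) was called higher in VEH sham slices, where the sum was 14.9 to 19.8 CPM in wild-type and 15.6 to 514 CPM in T41B mice. In VEH stimulated slices 2 (Folr1, Slc4a5) were called lower, with sums of 13.9 to 1179 CPM in wild-type and 16.99 to 287 CPM in T41B mice, and none was called with BD10-2. The part of all these markers in the members' genotype differences was not tested.

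No member was called between BD10-2 and vehicle in any of the 4 combinations of genotype and slice (edgeR; 0% of the 19478 genes were called in each). At an unadjusted p under 0.05 there was 1 member in WT sham slices, none in WT stimulated or T41B sham slices and 1 in T41B stimulated slices. Over all genes 1.92%, 5.61%, 2.21% and 3.9% passed that threshold in the same order, and DESeq2 called no member in any of these comparisons. Log2 fold changes ran from −0.68 to 0.77, with SE from 0.18 to 0.54. The largest was Tlr9 in T41B stimulated slices, with 4.68, 5.56, 2.97 and 4.82 CPM under vehicle and 6.62, 5.24, 7.43, 10.5 and 8.35 CPM under BD10-2. One vehicle value lay above the lowest BD10-2 value (0.77 ± 0.19, edgeR adjusted p = 0.719). The other was Tlr4 in WT sham slices (0.73 ± 0.35, edgeR adjusted p = 1). Tlr2 was at −0.12 ± 0.24 in T41B sham and 0.43 ± 0.23 in T41B stimulated slices. Each batch held 1 treatment, so batch and treatment cannot be told apart in these values.

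Whether the response to stimulation differed between genotypes or between treatments was tested as an interaction. No member passed in either genotype test or either treatment test (edgeR; 0% of the 19478 genes in each), and DESeq2 called none. At an unadjusted p under 0.05 there were 4 members in the genotype test with vehicle (Tlr1, Tlr2, Tlr4, Tlr13), 2 with BD10-2 (Tlr1, Tlr3), 1 in the treatment test in wild-type mice (Tlr4) and 1 in T41B mice (Tlr9). Over all genes 8.64%, 4.34%, 1.73% and 2.7% passed that threshold in these tests. With vehicle, the T41B response minus the wild-type response was −1.32 ± 0.51 for Tlr1, −1.04 ± 0.38 for Tlr2, −1.41 ± 0.46 for Tlr4 and −1.15 ± 0.47 for Tlr13 (edgeR adjusted p = 0.507, 0.488, 0.436 and 0.521). With BD10-2 it was 1.304 ± 0.357 for Tlr3 (edgeR adjusted p = 0.444), and without Mouse1592, whose stimulated slice had the lowest Tlr3 of its group, it was 1.56 and passed (adjusted p = 0.00683). The calls of Tlr3 in T41B but not in wild-type slices, and those of Tlr13, are therefore not shown to differ between genotypes in the fit of all samples.

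Other genes of Toll-like receptor signalling were read from lists of co-receptors, adaptors, transcription factors, inhibitors and products. The co-receptor Cd14, which hands lipopolysaccharide and lipopeptides to TLR4 and TLR2, rose in all 4 stimulation comparisons (3.06 ± 0.27, 3.42 ± 0.26, 2.92 ± 0.30 and 4.06 ± 0.24 in WT VEH, T41B VEH, WT BD10-2 and T41B BD10-2 mice). Its mean level went from 7.60 ± 0.73 to 63.4 ± 9.97 CPM (SD, n = 4) in WT VEH mice and from 29.8 ± 8.75 to 320 ± 81.3 CPM in T41B VEH mice. Ly96, the MD-2 subunit that TLR4 needs at the surface, rose with BD10-2 (1.92 ± 0.53 and 1.09 ± 0.40 in wild-type and T41B mice) and was 1.27 ± 0.48 and 1.23 ± 0.46 with vehicle, uncalled. Cd180, a receptor-like relative of TLR4, rose in wild-type mice (1.23 ± 0.26 and 1.41 ± 0.28), while its partner Ly86 fell in T41B VEH (−1.27 ± 0.21), WT BD10-2 (−0.96 ± 0.26) and T41B BD10-2 mice (−0.50 ± 0.18). Unc93b1, the chaperone that carries the nucleic acid receptors to endosomes, fell with vehicle (−0.77 ± 0.21 in wild-type and −0.81 ± 0.20 in T41B mice) and was uncalled with BD10-2. Cd14, Cd180, Ly86 and Unc93b1 were each higher in T41B in all 4 genotype comparisons, and Ly96 in none. Lbp, which encodes the lipopolysaccharide-binding protein, rose with stimulation in WT VEH mice (1.66 ± 0.46), the group with the high choroid plexus markers, and was lower in T41B in VEH stimulated slices (−1.60 ± 0.45). Of the 10 co-receptor and trafficking genes, 3, 1, 3 and 2 were called higher and 1, 2, 1 and 1 lower with stimulation, in the order above.

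Among 18 adaptors and kinases, 4, 7, 3 and 8 were called higher and 1, 3, 1 and 2 lower. Myd88, the adaptor of all members but Tlr3, rose in every stimulation comparison (1.52 ± 0.20, 1.52 ± 0.18, 1.27 ± 0.22 and 1.89 ± 0.17). Ticam1, which encodes TRIF, rose in WT VEH mice (0.67 ± 0.16) and was −0.10 ± 0.15, 0.39 ± 0.18 and 0.30 ± 0.13 in the others. Ticam2, the bridge between TLR4 and TRIF, fell in T41B mice (−1.47 ± 0.30 with vehicle and −0.72 ± 0.25 with BD10-2). Tirap, the bridge between TLR2 or TLR4 and MyD88, rose in T41B BD10-2 mice (0.60 ± 0.19). Of 10 transcription factors 7, 6, 6 and 8 rose and none fell, with Irf7 at 3.17 ± 0.54, 3.00 ± 0.45, 3.15 ± 0.60 and 4.49 ± 0.44, and with Nfkb2 and Irf1 also called in all 4. Of 10 inhibitors 6, 6, 5 and 6 rose and 1 fell, in T41B VEH mice. Those that rose in all 4 comparisons included Tnfaip3 (2.21 ± 0.19, 2.35 ± 0.19, 2.37 ± 0.22 and 2.47 ± 0.17), Socs1 and Irak3 (0.91 ± 0.27, 0.93 ± 0.24, 1.01 ± 0.29 and 0.97 ± 0.22). Of 14 products 12, 14, 12 and 14 rose, with list medians of 4.51, 3.84, 4.33 and 4.21. Il1b, which encodes interleukin-1 beta, went from 0.31 ± 0.10 to 50.8 ± 21.3 CPM in WT VEH mice and from 1.88 ± 1.71 to 356 ± 72.5 CPM in T41B VEH mice (SD, n = 4 in each group). These list medians lay above the fold change of every member. Nos2, the inducible nitric oxide synthase, was called in the T41B comparisons (4.12 ± 0.69 and 5.49 ± 0.60) and was 1.88 ± 0.79 and 1.38 ± 0.79 in wild-type mice.

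Between genotypes, listed as VEH sham, VEH stimulated, BD10-2 sham and BD10-2 stimulated slices, 9, 8, 8 and 9 of the 10 transcription factors, 8, 12, 7 and 10 of the 14 products, and 4, 5, 4 and 6 of the 10 inhibitors were higher in T41B, and none of these lists held a lower call. Of the adaptors and kinases 6, 5, 2 and 7 of 18 were higher. Irf8, a factor of the myeloid lineage, was higher by 1.82 ± 0.32, 2.08 ± 0.31, 1.91 ± 0.34 and 2.86 ± 0.34. Myd88 was higher in 3 of the 4 (0.95 ± 0.20, 0.95 ± 0.18 and 1.24 ± 0.19) and was 0.62 ± 0.20 in BD10-2 sham slices, uncalled. Several of these genes are themselves expressed by microglia, whose markers moved with genotype as given above.

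**Figure D5:**
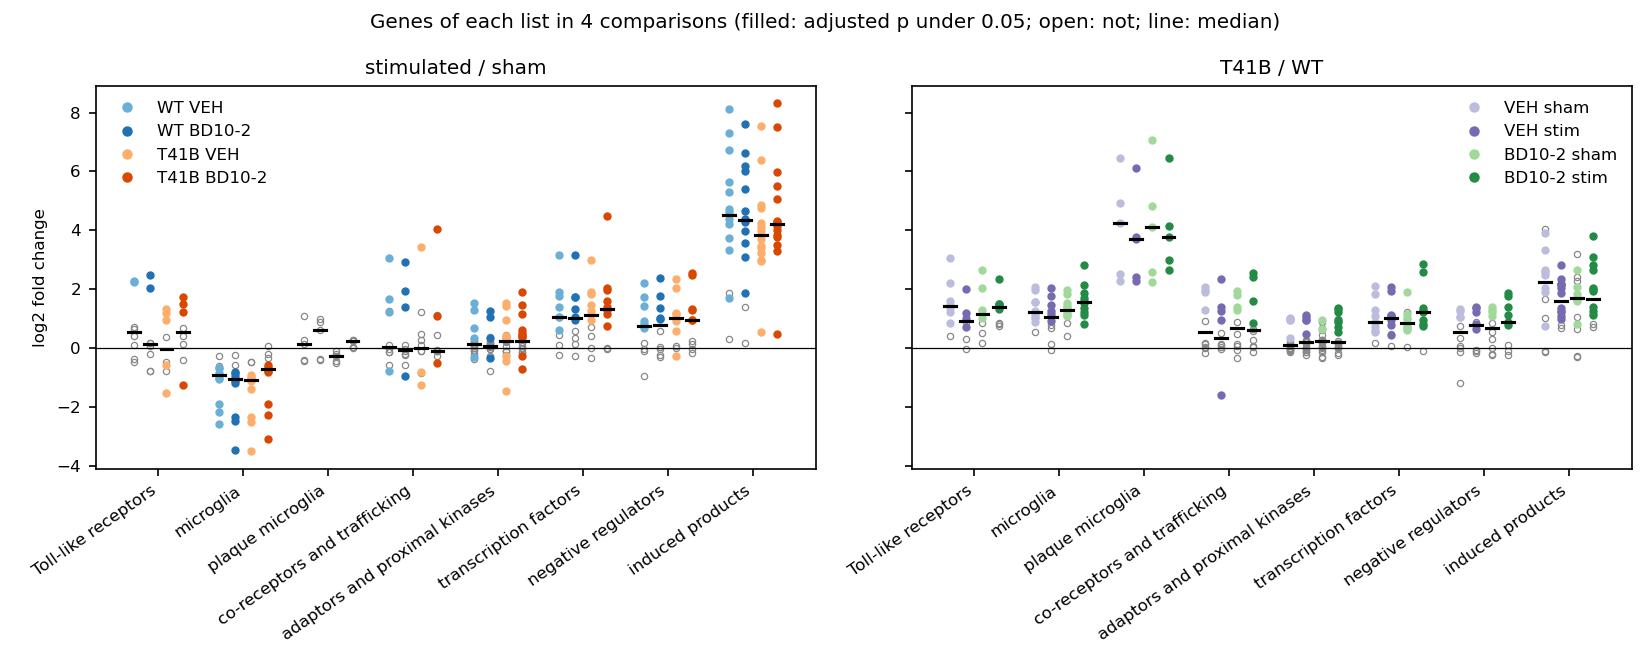
Log2 fold changes (vertical axis) of single genes in the member list, 2 microglial marker lists and 5 pathway lists, for the 4 stimulation comparisons (left) and the 4 genotype comparisons (right); filled points passed adjusted p under 0.05, open points did not, and short lines are list medians. With stimulation the members lie on both sides of 0, the called points of the microglia list below it, no point of the plaque microglia list is filled, and the medians of the products lie far above 0, while with genotype nearly all called points are above 0.

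For the 8 members tested, the genes with the most similar pattern were found as those with the smallest root mean square difference of centred log2(CPM + 1) over the 32 samples, a description without a test. For Tlr2 they were Slc15a3 (0.48), Ch25h (0.50) and Gpr84 (0.51), against a spread of Tlr2 itself of 1.499. For Tlr1 they were Myo1e (0.21), Apbb1ip (0.21) and Sowahc (0.24), and for Tlr3 Nmi (0.22), Setdb2 (0.22) and Atp13a4 (0.23), against spreads of 0.60 and 0.70. For Tlr9 they were Cd33 (0.23), Syngr2 (0.23) and Ifi30 (0.24), for Tlr7 Cd53 (0.25), Adamtsl3 (0.28) and Aqp4 (0.29), and for Tlr13 Klhl6 (0.27), Fmnl3 (0.30) and Rnase4 (0.34). For Tlr6 they were Cmtm6 (0.16), Ctsa (0.20) and Ankrd13a (0.20). For Tlr4 they were Skil (0.24), Lipo3 (0.25) and Arsk (0.26), close in size to the spread of Tlr4 (0.36).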

How the data were processed

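RNA of hippocampal slices was sequenced in 36 libraries from 18 mice, prepared from 200 ng of total RNA with a stranded kit and ribosomal RNA depletion, per the labels' protocols. The authors deposited RSEM expected counts per gene, unscaled; the submitters' processing notes name cutadapt 1.8.1, STAR 2.7.6a, RSEM 1.3.1, featureCounts 1.6 and SAMtools 1.11 and the builds GRCm38.p6 and mm10. The annotation release and strand setting are not given in the sources used here. Expected counts were rounded. Libraries with the same mouse, slice and group labels (4 pairs) were added, which gave 32 samples. Symbols came from a gene name table in which 55154 of 55421 identifiers matched, gene coordinates and exon lengths from GENCODE M21 (GRCm38), and promoters from RefSeq.

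Genes were filtered by filterByExpr (minimum count 10), scaled by TMM and tested with edgeR 4.0.16 in R 4.3.3 (quasi-likelihood F test, 8 group coefficients, no covariate), with Benjamini-Hochberg adjustment over 19478 genes and a threshold of 0.05. CPM is per 1000000 TMM-scaled counts, except single libraries, which are unscaled. SE is the log2 fold change divided by the root of its F value. Counts limit precision most for Tlr1, Tlr6 and Tlr12. The test was also run on simulated counts, and the outcome of that run is not given here. Samples were grouped by their labels, and the mouse numbers in the labels pair slices: same-mouse slices deviated together (mean r = 0.29 over 14 pairs, 0.053 to 0.552). For slices of different mice the mean r was −0.078 over 52 pairs. Deviations were taken from group means, which by itself pulls that second mean to negative values, so it is not separate evidence. Alternatives were DESeq2 1.42.0, RLE scaling, no filter or a minimum count of 30, libraries kept apart or 1 of each pair, only the groups compared, batch as covariate, the mouse as block and each mouse left out. Use of either library of the stimulated slice of Mouse1592 alone was added after its libraries were seen to differ.

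The members and the gene lists were chosen with earlier results of these data known. All members were named in every comparison, with Thy1, Cd14, Ly96, Cd180, Ly86, Unc93b1, Myd88, Tirap, Ticam1 and Irak3. From other pathway lists at most 4 called genes per comparison were eligible, those with the largest change at 1 CPM or more. Ticam2 and Nos2, where outside that rule, were named after their values were seen. For likeness the 3 nearest genes were named.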

Additional observations from a re-analysis of the deposited data

Results flagged for a closer look

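Single values far from the rest of their group, by Dixon's criterion, were found in 2 of 48 groups of 4 or 5 samples over the 8 members tested, where chance gives about 1 in 20. Tlr3 was lowest in the sham slice of Mouse1570 (T41B BD10-2), at 11.7 CPM, where the other 4 mice had 17.3 to 19.2 CPM. Tlr13 was highest in the stimulated slice of Mouse1592 (T41B BD10-2), at 6.18 CPM, where the other 4 had 2.20 to 3.30 CPM. The libraries of this slice had Tlr13 at 4.38 and 7.44 CPM, both above the other mice.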

How the results depend on the processing

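Of 33 member calls, 22 were kept under every alternative run for them, Tlr2 in all 8 of its stimulation and genotype comparisons among them. The number of members called was recounted 298 times over all 16 comparisons, and 287 recounts stayed within 1.5 times the count of the full fit. The treatment and interaction comparisons, which had no call in the full fit, are among them. There a recount without a call was taken as unchanged, so this share overstates how stable the calls were. With only the groups compared, the count was 3 rather than 5 for stimulation in T41B VEH mice and 4 rather than 7 for genotype in VEH sham slices. With batch as a covariate it was 3 rather than 7 for genotype in VEH sham and 1 rather than 4 in VEH stimulated slices. Leaving out 1 mouse gave 3 to 5 for stimulation in T41B VEH mice (3 without Mouse1553 or Mouse1579), 4 to 7 for genotype in VEH sham slices (4 without Mouse1509 or Mouse1551), 1 to 5 in VEH stimulated slices (1 without Mouse1551 and 2 without Mouse1509) and 0 to 1 for the genotype interaction with BD10-2 (1 without Mouse1592). The cause was not tested. The fit with the mouse as replicate block gave 2, 6, 2 and 5 stimulation calls and changed no other call; genotype and treatment comparisons could not be fitted with it. No result with an unadjusted p under 0.05 changed sign in any alternative; 71 of 2365 member values in all did. Low counts limit Tlr6 in wild-type slices (1 to 15 a sample) and Tlr1 in WT VEH sham slices (3 to 7).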
